A study of Mus musculus with 6 samples.

Results

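The 9 genes described here are components and targets of the canonical Wnt pathway: the receptor Fzd7, the destruction complex members Gsk3b and Axin2, beta-catenin (Ctnnb1), the DNA-binding partners Lef1 and Tcf7, and the target genes Sp5, Nkd1 and Dkk1. They were chosen by name, with earlier results of these data known, and every array probe that the platform annotation gives to them was taken. This yielded 10 probes for 8 of the 9 genes, out of 25697 probes and 16593 genes on the array. No probe used here was annotated to Tcf7, so it was not analysed here. The cells were E14, a mouse embryonic stem cell line, in 2 groups of 3 samples each: cells given an shRNA against REST for 72 h, and cells given the empty pSuper vector for the same time. All 6 samples come from this 1 line, and RNA of each was hybridised to an Illumina bead array. REST is a repressor that silences neuronal genes outside the nervous system.

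Wnt ligands bind Frizzled receptors together with Lrp5 or Lrp6, and this stops a cytoplasmic complex of Axin, Apc and Gsk3 from marking beta-catenin for degradation. The beta-catenin that accumulates enters the nucleus and turns TCF and LEF proteins from repressors into activators. Axin2, Sp5, Nkd1, Lef1, Tcf7 and Dkk1 are transcribed in response, and Axin2, Nkd1 and Dkk1 in turn dampen the signal. In mouse embryonic stem cells, Wnt signalling and inhibition of Gsk3 favour self-renewal, in large part by relieving repression by Tcf7l1. The arrays measure transcripts, whereas beta-catenin is mainly regulated as a protein.

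The 6 arrays had mean intensities between 442 and 473, and between 46.4% and 49.0% of their probes were above background, that is, brighter than negative controls at a detection p under 0.05. The knockdown could not be checked at the Rest transcript, because the only Rest probe was above background on none of the arrays. Its deposited intensities, on a linear scale where 0 is the background, were -1.7, 0.3 and 3.3 in REST shRNA cells and averaged -0.03 ± 0.60 in vector control cells (SD, n = 3). The neural marker Syp was 9.57-fold higher in REST shRNA cells (limma adjusted p = 1.79e-06), and Vgf was 9.16-fold higher (limma adjusted p = 3.07e-06). Of 5 tested neural markers, 3 rose and 2 fell (100% called, against 27% of all tested genes). None of these measures REST itself. All 12 embryonic stem cell markers listed, among them Pou5f1, Sox2 and Nanog, were above background. Of these, Pou5f1 (-0.63) and Fgf4 fell, Zfp42 (0.66) and Dppa4 (0.49) rose, and 8 were not called (limma, adjusted p under 0.05). The called share of 33.3% stands against 27% of all 8740 tested genes. Their summed intensity was 146134 to 152439 in REST shRNA cells and 155382 to 165081 in vector control cells. The labels do not say that the replicates were separate cultures, so the p-values measure the spread between these samples only.

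No Wnt member passed the test for a change between REST shRNA and vector control cells. Of their 10 probes, 7, representing 6 genes, were above background on at least 3 of the 6 arrays and were tested. By limma with Benjamini-Hochberg adjustment over all 12406 tested probes, 0 of these 7 passed an adjusted p of 0.05, and 0 had an unadjusted p under 0.05. Over all tested probes, 25.9% passed the adjusted threshold (12.8% higher and 13.1% lower in REST shRNA cells) and 38.7% the unadjusted one. The adjusted p of the 7 probes ran between 0.196 and 0.901. Their changes were small, with a median size of 0.10 on the log2 scale, against 0.23 over all tested probes. The bound farthest from 0 among their 95% intervals was 0.45, a 1.37-fold change, in the reported setting. Changes beyond that size on this log2 scale lie outside the intervals of the members tested. For Sp5 and Nkd1, close to background, the log2 scale understates true ratios, so their intervals do not bound those.

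**Figure D1:**
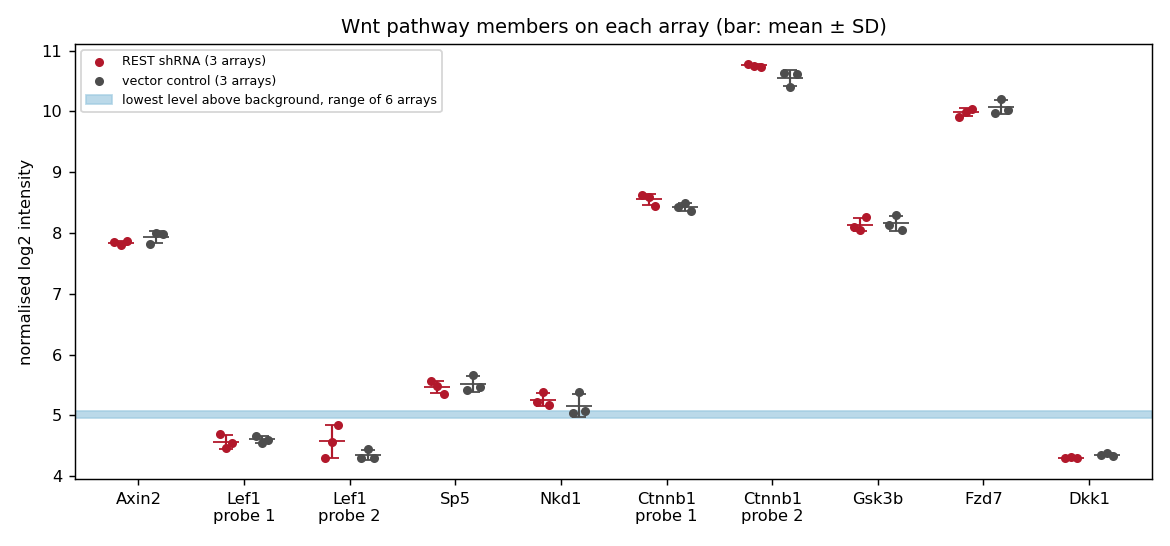
Normalised log2 intensity (vertical axis) of the 10 member probes (horizontal axis) on 3 REST shRNA arrays, left of 3 vector control arrays, with points for arrays and bars for mean ± SD. The groups sit at nearly the same height for each probe, and both Lef1 probes and the Dkk1 probe lie under the band that marks the lowest level above background on each array; heights of different probes are not comparable as transcript amounts.

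Fzd7, a Frizzled receptor that is prominent in pluripotent cells, was bright on every array. Its normalised log2 levels were 9.91, 10.00 and 10.04 in REST shRNA cells and 9.98, 10.21 and 10.03 in vector control cells. The groups overlapped, and only vector control replicate 2 lay above all REST shRNA samples. The log2 change was -0.09 ± 0.11 (SE, n = 3 per group; limma adjusted p = 0.589), with a 95% interval of -0.33 to 0.16.

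Gsk3b, the kinase that phosphorylates beta-catenin in the destruction complex, had log2 levels of 8.10, 8.05 and 8.26 in REST shRNA cells, against 8.14, 8.30 and 8.05 in vector control cells. The 2 sets of values were interleaved. The log2 change was -0.02 ± 0.11 (SE, n = 3; adjusted p = 0.901), the smallest of the 7 tested probes, and its interval ran between -0.28 and 0.24.

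Axin2 is both a scaffold of the destruction complex and the target gene most often read as a sign of canonical Wnt activity. Its levels were 7.86, 7.79 and 7.86 in REST shRNA cells and 7.82, 8.00 and 7.98 in vector control cells. Vector control replicate 1 fell among the REST shRNA samples, and the other two control samples were above them. The change was -0.10 ± 0.10 on the log2 scale (SE, n = 3; adjusted p = 0.530). Its 95% interval, from -0.33 to 0.14, corresponds to ratios of REST shRNA over vector control between 0.795 and 1.10.

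Ctnnb1, which encodes beta-catenin, had the largest change of the members. At its brighter probe (probe 2 in the plots) the log2 levels were 10.78, 10.75 and 10.73 in REST shRNA cells and 10.64, 10.40 and 10.62 in vector control cells. All REST shRNA samples were above all vector control samples, as was true of no other tested member probe. Groups that do not overlap were found for 43.3% of all tested probes. The log2 change of 0.21 ± 0.11 (SE, n = 3), or 1.15-fold, did not pass the test (adjusted p = 0.196, interval -0.04 to 0.45).

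The other Ctnnb1 probe (probe 1) gave 8.62, 8.59 and 8.45 in REST shRNA cells, against 8.42, 8.50 and 8.36 in vector control cells. Here the groups overlapped at REST shRNA replicate 3. The change was in the same direction, 0.12 ± 0.11 (SE, n = 3; adjusted p = 0.419). Both probes are annotated to 1 gene and are not replicates of each other.

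**Figure D2:**
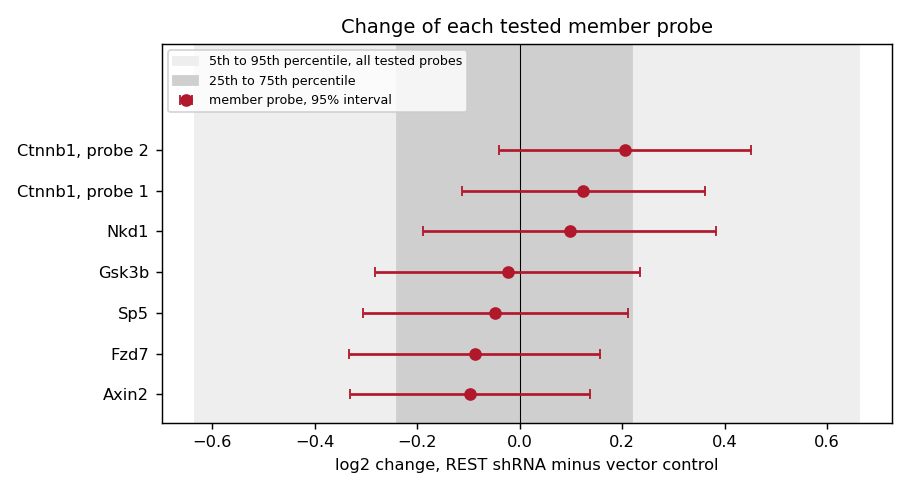
Log2 change, REST shRNA minus vector control (horizontal axis), of the 7 tested member probes (vertical axis), with points for estimates, bars for 95% intervals, and shading for the 5th to 95th and 25th to 75th percentiles of all tested probes. Every interval includes 0, and every estimate lies within the inner band of -0.24 to 0.22.

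Lef1 and Dkk1 were below background in both groups, so they have no fold change and were not tested. Lef1 is a DNA-binding partner of beta-catenin and itself a target. Its 2 probes had deposited intensities of 6.3, -2.9 and 0.5, and of -14.5, 2.1 and 11.2, in REST shRNA cells. In vector control cells they had 5.4, 1.4 and 3.1, and -13.7, -3.6 and -13.5. Neither probe was above background on any array, and the groups overlapped at both.

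Dkk1 is a secreted antagonist that binds the Lrp5 and Lrp6 coreceptors. Its probe read -14.0, -12.9 and -14.8 in REST shRNA cells and -9.8, -7.9 and -11.4 in vector control cells. The REST shRNA values were all lower, but all 6 lie below the mean of the negative controls and are no measure of Dkk1 transcript. On these arrays an intensity had to reach 14.3 to 16.5 to count as above background, so a lower level of Lef1 or Dkk1 was not detectable.

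Sp5 and Nkd1 were measured just above background. Sp5 is a zinc finger factor induced directly by beta-catenin, and its deposited intensities were 32.6, 29.7 and 25.5 in REST shRNA cells and 27.1, 33.0 and 27.4 in vector control cells. On the log2 scale these samples had 5.56, 5.49 and 5.36 in REST shRNA cells against 5.41, 5.66 and 5.48 in vector control cells. The groups overlapped fully, with a log2 change of -0.05 ± 0.11 (SE, n = 3; adjusted p = 0.792) and an interval of -0.31 to 0.21.

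Nkd1, an inhibitor that binds Dishevelled, had intensities of 22.0, 26.2 and 20.5 in REST shRNA cells, against 16.6, 24.8 and 16.4 in vector control cells. It was above background on all REST shRNA arrays and on 2 of 3 vector control arrays. Its log2 levels were 5.21, 5.38 and 5.18 in REST shRNA cells and 5.04, 5.38 and 5.07 in vector control cells. The overlap came from vector control replicate 2, and the change was 0.10 ± 0.13 (SE, n = 3; adjusted p = 0.609). So close to background, the log2 scale understates true ratios.

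**Figure D3:**
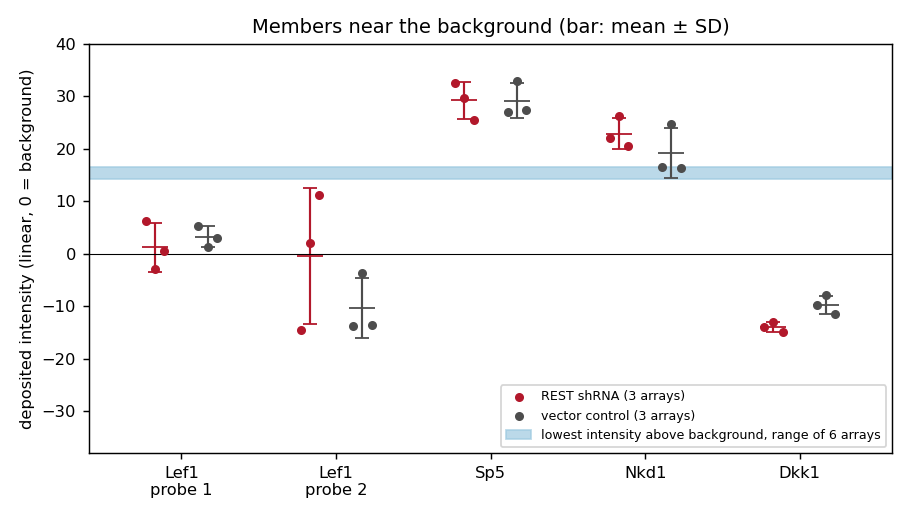
Deposited linear intensity (vertical axis, 0 is the background) of the members near or below background (horizontal axis), with 3 REST shRNA arrays left of 3 vector control arrays and bars for mean ± SD. Sp5 and most Nkd1 values lie above the band at 14.3 to 16.5 where a probe counts as above background, while all Lef1 and Dkk1 values lie under it.

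The sign of the change of Gsk3b and Sp5, near 0, depended on single arrays. It turned without vector control replicate 2 for Gsk3b (0.043) and Sp5 (0.025), without REST shRNA replicate 2 for Gsk3b (0.02), and without REST shRNA replicate 3 for Sp5 (0.01). In the authors' deposited ratios, put on the log2 scale and fitted in the same way, the median change of all tested probes was 0.09, a shift of 0.097 upward. Axin2 had 0.063, Fzd7 0.047 and Sp5 0.026 there, all above 0 but below that median, by 0.027, 0.043 and 0.064. Gsk3b had 0.13, which is 0.038 above it. No member passed the test under any of these settings, and both Ctnnb1 probes and Nkd1 stayed positive under each of the alternative settings run. At the brighter Ctnnb1 probe the change was 0.13 without vector control replicate 2 and 0.36 in the authors' ratios.

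The start sites of the members were searched for the words that TCF and LEF proteins bind, on both strands. Each word was CTTTG followed by AA, AT, TA or TT, so that 4 words of the same length were searched. RefSeq promoters of build GRCm38.p6 were used, each with 250 bases before and 50 after a start, and all 9 genes had at least 1, in all 14. At least 1 word was present in 4 of the 14, against 16.9% of all 32851 promoters. The core of the REST binding element, CAGCACC followed, after any 2 bases, by GGACAG, was in none of the 14 and in 0.0365% of all promoters. A match is a string of letters and not a measured site, and no match says only that these letters are not in this window.

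Sp5 and Dkk1 each held 2 of the TCF/LEF words, as did 1.94% of all promoters. They are shown because one was measured near background without a detectable change and the other was not above background in either group. The sequences run 5′ to 3′ on the strand of the gene and end at the base before the start site, with the words, or their reverse complements, in capitals. The Sp5 stretch is chr2:70474673-70474922 on the plus strand, and that of Dkk1 is chr19:30549497-30549746 on the minus strand.
Sp5: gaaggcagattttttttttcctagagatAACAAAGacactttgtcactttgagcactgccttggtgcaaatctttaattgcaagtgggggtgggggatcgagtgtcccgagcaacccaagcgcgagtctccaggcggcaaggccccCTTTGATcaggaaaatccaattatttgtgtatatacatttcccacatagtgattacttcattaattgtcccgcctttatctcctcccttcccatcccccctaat
Dkk1: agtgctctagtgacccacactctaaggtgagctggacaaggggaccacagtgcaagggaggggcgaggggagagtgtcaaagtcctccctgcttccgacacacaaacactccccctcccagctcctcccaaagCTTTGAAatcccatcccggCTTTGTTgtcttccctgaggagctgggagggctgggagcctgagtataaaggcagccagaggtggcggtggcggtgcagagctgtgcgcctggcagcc

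In Sp5 the words began 222 bases upstream of the start, on the opposite strand, and 104 bases upstream, on the strand of the gene. In Dkk1 both were on the strand of the gene, 117 and 98 bases upstream. Fzd7 and the most downstream of 4 annotated Lef1 starts held 1 word each, on the opposite strand, 130 and 147 bases upstream. Stretches of 60 bases around these are shown to set the contexts beside those of the target genes, from chr1:59481991-59482050 for Fzd7 and chr3:131156121-131156180 for Lef1, both on the plus strand.
Fzd7: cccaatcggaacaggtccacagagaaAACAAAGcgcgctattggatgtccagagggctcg
Lef1: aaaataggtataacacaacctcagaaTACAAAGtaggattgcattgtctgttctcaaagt

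The Axin2, Nkd1, Ctnnb1, Gsk3b and Tcf7 windows held no such word. Among the members with a tested probe, Sp5 and Fzd7 held a word and Axin2, Nkd1, Ctnnb1 and Gsk3b did not, and none of these genes passed the test.

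The wider pathway was read from 7 lists of genes by role, in which 151 genes had a probe and 89 were tested. A few genes stand in more than 1 list, and a gene with several tested probes was read from the brightest. Of the 89, 4 rose, 19 fell and 66 did not pass the test. Ascl2, counted among the 19, was above background only on vector control arrays. Higher genes made up 4.49% of them and lower genes 21.3%, against 13.9% and 13.1% of all 8740 tested genes, of which 27% were called in all. The median log2 change was -0.10, against 0.00 over all genes. The lists were written with earlier results of these data known, so these shares and this median are a description and no test. In the authors' ratios the counts were 11 higher and 15 lower. Without vector control replicate 2, and likewise without REST shRNA replicate 3, they were 0 higher and 14 lower. With an offset of 50 in the background step, in place of 16, the changes of 4 dim called genes shrank by over 1.5 times and were still called, to -0.62 for Fgf8, -0.34 for Wnt3a, -0.27 for Wnt6 and 0.35 for Fzd6.

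**Figure D4:**
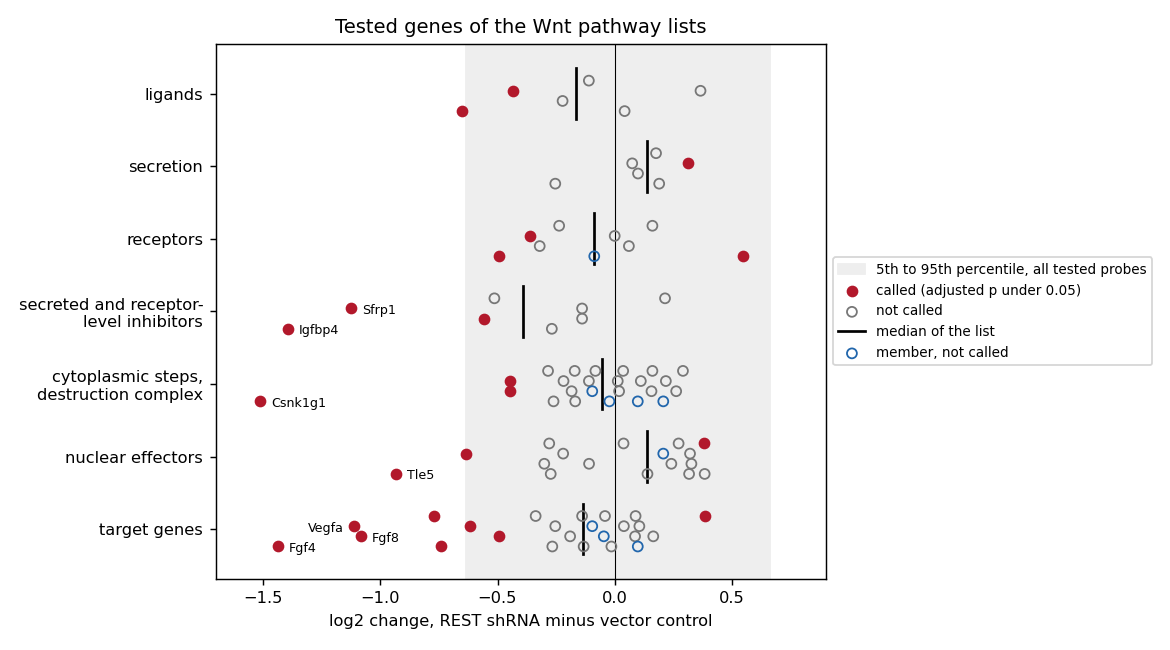
Log2 change, REST shRNA minus vector control (horizontal axis), of the tested genes in 7 lists by role (rows), with filled points for genes that passed the test, open points for those that did not, blue open points for the members short lines for list medians and shading for the 5th to 95th percentile of all tested probes. The median of the secreted and receptor-level inhibitors, at -0.39, is the lowest of the 7, and the members lie between -0.10 and 0.21.

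Secreted and receptor-level inhibitors had 3 of 8 tested genes lower, 0 higher and 5 not called, with a median log2 change of -0.39. Their called share was 37.5%, against 27% of all tested genes. Sfrp1, a secreted protein that binds Wnt ligands, had log2 levels of 7.27, 7.16 and 6.96 in REST shRNA cells and 8.28, 8.25 and 8.25 in vector control cells. The groups were well apart, and it fell by 1.12 ± 0.11 on the log2 scale (SE, n = 3; adjusted p = 0.000407). Igfbp4, an IGF-binding protein that can also block Frizzled and Lrp6, fell by 1.39 ± 0.16 (SE, n = 3; adjusted p = 0.000819), and its other probe gave -1.38. Dkk3, a relative of Dkk1 whose role in Wnt signalling is unsettled, fell by 0.56 ± 0.14 (SE, n = 3; adjusted p = 0.0176). A dimmer Dkk3 probe had -0.39 and was not called (adjusted p = 0.101), and the Dkk3 call was lost without vector control replicate 2 or 3 or REST shRNA replicate 3 (adjusted p at most 0.0605).

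Of 7 tested fibroblast markers, 4 fell (Twist1, Timp1, Mmp2 and Acta2), Col6a1 rose and 2 were not called. Among them 71.4% were called, against 27% of all tested genes. Of 15 with a probe, 9 were above background on at least 1 array, and their summed intensity was 3042 to 3371 in REST shRNA cells and 4555 to 5355 in vector control cells. The fibroblast collagens Col1a1 and Col3a1, and Dcn, Lum and Postn, were above background on no array. In RNA from a whole culture, fewer cells of a type and less RNA per cell cannot be told apart, and the part of these markers in the lower inhibitor levels was not tested.

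Among ligands, 2 of 6 tested genes fell, 0 rose and 4 were not called (33.3% called, against 27% of all tested genes). A further 18 with a probe were too dim to test. Wnt3a, a canonical ligand of the primitive streak, had log2 levels of 5.25, 4.72 and 4.73 in REST shRNA cells, against 5.63, 5.60 and 5.42 in vector control cells. It was above background on 1 REST shRNA array and on all vector control arrays, and fell by 0.65 ± 0.16 (SE, n = 3; adjusted p = 0.0166). Its call was lost without vector control replicate 1 or 2 or REST shRNA replicate 2 or 3 (adjusted p at most 0.0605). Wnt6 fell by 0.44 ± 0.13 (SE, n = 3, limma adjusted p = 0.0324). It was not called in the authors' ratios (0.122) or with a trended and robust variance (0.0717). Nor was it called without REST shRNA replicate 3 or any 1 vector control array (at most 0.0985). Wnt7b, a ligand active in the developing nervous system, had 0.36 ± 0.12 (SE, n = 3; adjusted p = 0.0560) at its brighter probe and -0.05 at the other (adjusted p = 0.872). The brighter one passed the test under 6 of 14 alternatives, the authors' ratios among them (0.45, adjusted p = 0.0245).

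Of 6 tested genes of ligand secretion, 1 rose and 5 were not called (16.7% called, against 27% of all tested genes). Porcn, the acyltransferase that attaches the lipid Wnt proteins need, was 1.24-fold higher in REST shRNA cells (log2 change 0.31 ± 0.10, limma, n = 3; adjusted p = 0.0485). Its call was lost whichever of the 6 arrays was left out (limma adjusted p 0.0783 to 0.116), and with the replicate number as a block (0.0851). The cargo receptor Wls had 0.19 (adjusted p = 0.247) and Notum, which removes that lipid, -0.25 (adjusted p = 0.181).

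Receptors had 1 of 9 tested genes higher, 2 lower and 6 not called (33.3% called, against 27% of all tested genes). Fzd6, a receptor of planar cell polarity, rose 1.46-fold, with levels of 6.43, 5.98 and 6.24 in REST shRNA cells and 5.54, 5.70 and 5.77 in vector control cells (limma, n = 3; adjusted p = 0.0196). Fzd10 fell by 0.50 ± 0.15 (SE, n = 3; adjusted p = 0.0373), with -0.43 at its other tested probe, which was not called (adjusted p = 0.0665), and Ror2, a receptor kinase for Wnt5a, by 0.36 ± 0.11 (SE, n = 3; adjusted p = 0.0450). In the authors' ratios neither Fzd10 (limma adjusted p = 0.116) nor Ror2 (0.291) was called. Neither was called with all probes tested (0.0623 and 0.0549) or with the replicate number as a block (0.0521 and 0.0753). Scaling by the median also ended the Ror2 call (0.0575). Leaving out 1 array ended all 3 calls: that of Fzd6 without vector control replicate 1 or 2 or REST shRNA replicate 1 or 3 (at most 0.0651), that of Fzd10 without any 1 array but vector control replicate 2 (at most 0.114), and that of Ror2 without any 1 array but vector control replicate 1 (at most 0.117).

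Of 24 tested genes of the cytoplasmic steps, the 4 members Axin2, Nkd1, Gsk3b and Ctnnb1 included, 3 fell, 0 rose and 21 were not called. This called share of 12.5% stands against 27% of all tested genes. The casein kinase gene Csnk1g1, whose protein phosphorylates Lrp6, had 5.41, 5.64 and 5.53 in REST shRNA cells against 6.94, 7.30 and 6.88 in vector control cells, and fell by 1.51 ± 0.14 (SE, n = 3; adjusted p = 0.000256). Its other probes gave -0.52 (adjusted p = 0.0112) and -0.02 (0.938), so the size of its change is uncertain. Csnk1e, a kinase of Dishevelled, fell by 0.45 (adjusted p = 0.0221) and by 0.66 at its other probe. The call at the first probe was lost without vector control replicate 2 or 3 or REST shRNA replicate 2 or 3 (at most 0.0706), and in the authors' ratios (0.0663). Dact2, which binds Dishevelled, fell by 0.45 (adjusted p = 0.0147) and was also not called in the authors' ratios (0.105).

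Nuclear effectors, a list that also holds Ctnnb1, had 1 of 17 tested genes higher, 2 lower and 14 not called. The list thus had 17.6% called, against 27% of all tested genes. Tle5, a short Groucho-family protein that modulates corepression at TCF factors, had 8.40, 8.29 and 8.10 in REST shRNA cells and 9.25, 9.29 and 9.05 in vector control cells. It fell by 0.93 ± 0.12 (SE, n = 3; adjusted p = 0.00136). The beta-catenin coactivator Bcl9l fell by 0.63 ± 0.15 (SE, n = 3; adjusted p = 0.0137), and the chromatin remodeller Chd8, which binds beta-catenin, rose 1.30-fold (adjusted p = 0.0399). The Chd8 call was lost with any 1 array left out except REST shRNA replicate 1 (limma adjusted p 0.0820 to 0.119). It was also lost with all probes tested (0.0506) and with the replicate number as a block (0.0639).

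The nearest relatives of Tcf7 with a tested probe were named after their values were seen. Tcf7l1, the main TCF repressor of embryonic stem cells, had 10.55, 10.47 and 10.66 in REST shRNA cells and 10.35, 10.28 and 10.23 in vector control cells. The groups did not overlap, as for 43.3% of all tested probes, but the log2 change of 0.27 ± 0.10 (SE, n = 3) did not pass the test (adjusted p = 0.0876). Tcf7l2 had 0.04 ± 0.19 (SE, n = 3; adjusted p = 0.908).

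Of 24 tested genes in the list of Wnt targets, which included the 3 tested target members Axin2, Sp5 and Nkd1, 1 rose, 7 fell and 16 were not called. Called genes made up 33.3% of them, against 27% of all tested genes. The 7 that fell were Fgf4, Fgf8, Vegfa, Ascl2, Ccnd1, Msx1 and Id2, which also respond to other signals. Fgf8, a growth factor of the primitive streak, had 5.10, 5.09 and 4.73 in REST shRNA cells against 6.10, 6.13 and 5.94 in vector control cells, and was above background on 2 of the 3 REST shRNA arrays. Fgf4, an autocrine growth factor of embryonic stem cells, had 6.89, 7.04 and 6.62 in REST shRNA cells against 8.00, 8.58 and 8.28 in vector control cells. Vegfa, which is also induced by hypoxia, had 7.66, 7.19 and 7.12 in REST shRNA cells against 8.22, 8.53 and 8.55 in vector control cells. The groups were apart for all 3 genes, which had been picked by their small p, and did not overlap for 43.3% of all tested probes. Fgf4 fell by 1.44 ± 0.17, Fgf8 by 1.08 ± 0.13 and Vegfa by 1.11 ± 0.16 on the log2 scale (SE, n = 3; limma adjusted p at most 0.00224).

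The other called targets were named after their values were seen, and their changes were not followed singly under the alternatives. The homeobox gene Msx1 fell by 0.77 (adjusted p = 0.00886), Ccnd1, which encodes cyclin D1, by 0.62 (adjusted p = 0.00481), and the helix-loop-helix inhibitor Id2 by 0.49 (adjusted p = 0.0140). Msx1 and Id2 were each above background on only 2 of the 3 REST shRNA arrays, so the sizes of their falls are uncertain. Ascl2, a factor of trophoblast and intestinal stem cells, was above background on no REST shRNA array and on all vector control arrays. Against the lowest level above background, its mean was at least 1.47-fold lower in REST shRNA cells, a bound without sampling error. It entered the test only through the vector control arrays, so its limma adjusted p (0.00453) is not taken as support for a fall. Bmp4 rose 1.30-fold (adjusted p = 0.0321). The embryonic stem cell markers share Fgf4 and Esrrb with the targets. Primitive streak markers, a list that shares T, Mixl1 and Fgf8 with the targets, had 2 of 6 tested genes lower, Fgf8 and Gsc. In this list 33.3% were called, against 27% of all tested genes. The summed intensity of the streak markers was 144 to 155 in REST shRNA cells and 192 to 238 in vector control cells. Mixl1, Eomes, Mesp1 and Hand1 were above background on no array. Of the trophoblast markers, which share Cdx2 with the targets, 5 of 9 were above background on at least 1 array, and Elf5, Eomes, Gata3 and Hand1 were not. Of 4 tested trophoblast markers, Krt8 and Krt18 fell, Tfap2c rose and 1 was not called, with a median log2 change of -0.42. Called were 75% of these, against 27% of all tested genes. The summed intensity, in which bright probes weigh most, was 10131 to 11479 in REST shRNA cells and 5334 to 6974 in vector control cells. The sum thus went the other way from the median of the list. Neural markers summed to 2975 to 3653 in REST shRNA cells and 2224 to 2490 in vector control cells, with 5 of 11 above background and Pax6, Sox1, Dcx and Tubb3 above it on no array. Syp, Map2 and Elavl3 rose, and Nes and Stmn2 fell. Without Syp the neural sum was 1727 to 2148 in REST shRNA cells and 2089 to 2357 in vector control cells. The part of these marker changes in the target levels was not tested.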

How the data were processed

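RNA from 6 samples of E14 cells was measured on Illumina bead arrays, and groups were taken from sample titles. The authors deposited linear intensity values for each probe, background-subtracted (0 is the background) but not normalised between arrays. Their deposited detection score increased with intensity and was therefore subtracted from 1 to give a detection p. A second table by the authors holds a deposited linear ratio per probe and array. All of its values could be rebuilt from the intensities after each array's minimum had been set to 0.1, with 1 factor per array and 1 per probe. Which software was used is not given in the sources used here.

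Intensities and detection p entered limma 3.58.1 (R 4.3.3) for normexp background correction with an offset of 16, and arrays were quantile normalised and put on the log2 scale. Probes above background (detection p under 0.05) on at least 3 arrays were tested, 12406 of 25697, with limma's moderated linear model and group as the only term. Gene symbols came from the platform annotation (23978 probes), and array probes carry no genome build in the files, so none are placed on the genome. Promoter positions are RefSeq's. A gene below background on all arrays of a group has its fold as a bound, against the lowest level above background on those arrays.

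The members and lists were chosen with earlier results of these data known. Named genes are all members and the 3 tested genes with the smallest p in each of the 7 lists, members aside. The plan also held the genes best correlated over the arrays with a rising and with a falling member. Those were not named, since no member was called. Deviations of same-numbered arrays from their group means correlated at -0.06, 0.03 and 0.04, so numbers were not taken as pairs. With 3 arrays a group, the number of arrays limits the precision, and an exact permutation test of 1 gene cannot go below 0.10. The alternatives included the authors' ratios, scaling by the median, skipping the background step, testing all probes or only those at a detection p under 0.01 on each of the 6 arrays, a trended and robust variance, an offset of 50, the replicate number as a block, the mean of a gene's probes, and each array left out.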

Additional observations from a re-analysis of the deposited data

How the results depend on the processing

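No member probe passed the threshold under any alternative run: of 96 values, 0 were called, and the lowest adjusted p was 0.0747, for the brighter Ctnnb1 probe. The sign of a change turned in 8 of them. In 4, from the authors' ratios, which moved the median of all tested probes up by 0.097, Axin2 had 0.063, Fzd7 0.047, Gsk3b 0.13 and Sp5 0.026. With 1 array left out, Gsk3b ran between -0.087 and 0.043 and Sp5 between -0.098 and 0.025. Both were above 0 without vector control replicate 2 (0.043 and 0.025), Gsk3b also without REST shRNA replicate 2 (0.02) and Sp5 without REST shRNA replicate 3 (0.01). Without the filter, Lef1 had -0.04 and 0.22 at its probes and Dkk1 -0.05, none of them called (lowest adjusted p 0.441).

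Leaving out each array in turn gave 0 called member probes, 14 to 19 called pathway genes in place of 23, and 2018 to 2695 called probes in place of 3209. The lowest counts came without vector control replicate 2 (14 and 2018) and without REST shRNA replicate 3 (14 and 2033), and the cause was not tested beyond there being fewer arrays. With the replicate block, 18 pathway genes (1 higher, 17 lower), 0 members and 2880 probes were called. Over all alternatives, 0 to 11 pathway genes were higher and 14 to 21 lower. In the authors' ratios 70.0% of all called probes were higher, against 49.5% in the reported setting. Of the 18 named pathway genes that passed the test, 8 (Sfrp1, Igfbp4, Csnk1g1, Tle5, Bcl9l, Fgf4, Fgf8 and Vegfa) stayed past it under every alternative that tested them and 10 lost it under at least 1. Fgf8 was too dim to be tested at a detection p under 0.01 on each array. Each gene was followed at its brightest tested probe, and another Csnk1g1 probe gave -0.02. Slides could not be used as a block, since the headers name none. Levels of Lef1 and Dkk1 below the background and small ratios of Sp5 and Nkd1 are beyond these arrays.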
